A study of Mus musculus with 6 samples.

Results

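The 10 genes described here are metallothionein and NRF2-dependent antioxidant genes of the mouse: Mt1, Mt2, Hmox1, Nqo1, Gclc, Gclm, Txnrd1, Srxn1, Prdx1 and Slc7a11. They were chosen by name and found through their identifiers in the GENCODE M21 annotation, and they are 10 of the 55487 genes in the count table. Megakaryocyte-erythroid progenitors, bone marrow precursors of the red cell and platelet lineages, came by sorting from C57BL/6 wild-type mice at an age of 8 weeks. RNA was sequenced in bulk from 3 control libraries and from 3 libraries of mice fasted for 6 h, and the study asked how this short fast bears on the making of red blood cells. The labels call the first group only control, and they do not say whether a library is 1 mouse or a pool. The p-values therefore measure the spread between these libraries, which may be technical.

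Metallothioneins are small cysteine-rich proteins that bind zinc and copper and can take up reactive oxygen species. Their genes are switched on through metal response elements by the zinc sensor MTF1, and also by glucocorticoid hormones. NRF2, encoded by Nfe2l2, is held at low levels by KEAP1 and, when released, binds antioxidant response elements in genes for glutathione synthesis, the thioredoxin system and quinone reduction. In red cell precursors, where haem and iron are handled in large amounts, BACH1 keeps several of these genes silent and leaves them when haem binds it.

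Total counts ranged from 22445970 to 30246110 in the control libraries and from 12797144 to 18225191 in the fasted libraries. A background rate was read from 1438 odorant and vomeronasal receptor genes, which these cells are not known to use. If spread evenly over exons it would make up a mean of 6.35% ± 2.35 (SD, n = 3) of a control library and 13.1% ± 1.55 (SD, n = 3) of a fasted library, with no overlap between the groups. Depth and background thus moved with fasting and cannot be told apart from it. Library-scaled counts (CPM) depend on the scaling, so 2 fits are given throughout. The all-gene fit scaled and tested 36508 genes. The restricted fit scaled and tested only the 10641 genes whose mean count was at least 5 times the background for their length. In the all-gene fit, genes at or above that limit had a median log2 fold change (fasted over control) of -0.50 and genes below it 0.53, so a value near -0.50 there marks a typical expressed gene. The median in the restricted fit was 0.02.

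The erythroid marker list, with Gata1, Klf1 and Epor, had 12 of 12 genes detected and summed to 4391 to 7552 CPM (restricted scale) in the control libraries and to 5982 to 9211 in the fasted libraries. Granulocyte and monocyte markers were also present in all libraries. Their 12 genes, none at 0 counts, summed to 3794 to 18933 CPM in the control group and to 1881 to 4706 CPM in the fasted group, and 12 of 12 had a log2 fold change below 0 in both fits, 3 of them past the threshold in the all-gene fit. The part of these cells in the values below was not tested. In bulk RNA, fewer cells of a type and less RNA per cell cannot be told apart.

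After 6 h of fasting none of the 10 genes passed the test in either fit, edgeR's quasi-likelihood test with a Benjamini-Hochberg adjusted p under 0.05. Mt2 had the largest log2 fold change of the genes tested in both fits, 0.84 and 1.35, and Prdx1 the lowest, -0.73 and -0.22. Of the 10 genes, 0 were called higher and 0 lower in the all-gene fit, where 1.15% of all genes tested were called higher and 3.82% lower. The 7 genes that reached the limit of the restricted fit gave 0 calls, as did all 10641 genes (0.0%), of which 2111 had an unadjusted p under 0.05 and DESeq2 called 503. At an unadjusted p under 0.05 stood 2 genes in the all-gene fit, Mt2 and Prdx1, and 2 in the restricted fit, Mt1 and Mt2. DESeq2 called Prdx1 in the all-gene comparison and Mt2 in the restricted one, and limma-voom, run on all genes, called 0 of the 10. A p above the threshold does not show that a gene was the same in both groups.

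The signs of Mt1, Nqo1, Gclc, Gclm, Txnrd1 and Srxn1 depended on the scaling, while those of Mt2, Hmox1, Prdx1 and Slc7a11 were the same under each scaling run. Hmox1 and Slc7a11 lie below 5 times the background and were not in the restricted fit. In the all-gene fit 4 of the 10 genes had a log2 fold change above 0 and 6 below, with a median of -0.17. The median over all 36508 genes was 0.32. It was -0.50 among genes that reached the limit of the restricted fit, as 7 of the 10 did, and 0.53 among the rest. In the restricted fit 6 of the 7 were above 0 and 1 below, with a median of 0.34 beside 0.02 over all 10641 genes. The 2 groups did not overlap in 1 of the 10 genes on the all-gene scale, Prdx1, where 34.9% of all genes tested did not. On the restricted scale they did not overlap in 3 of the 7, Mt2 and Gclm with the fasted libraries higher and Prdx1 with them lower, beside 27.3% of all genes in that fit. Mt2 was above 0 and Prdx1 below 0 under each of 18 alternatives of the all-gene fit and 12 of the restricted fit. The restricted fit is itself among the 18. Both genes are the extremes of the set in these same libraries, which every alternative reuses, so the kept signs are no separate support.

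**Figure D1:**
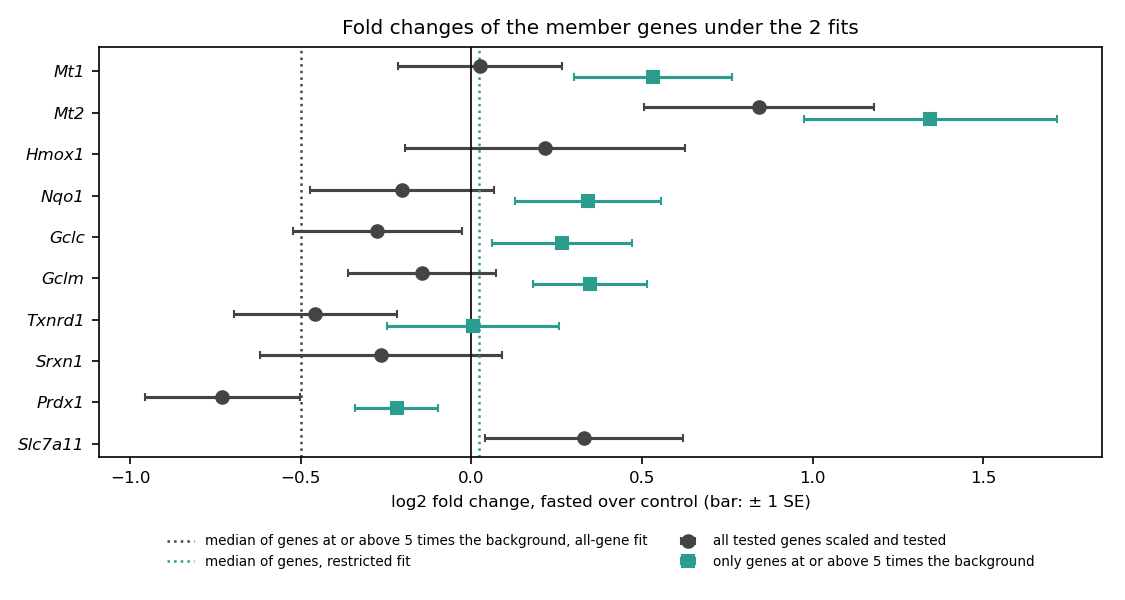
Log2 fold change, fasted over control, of the 10 genes (bars: 1 SE) in the all-gene fit (dark circles) and, for the 7 genes it holds, the restricted fit (green squares). The dotted lines mark the medians of -0.50 and 0.02 for genes at or above 5 times the background; Mt2 lies farthest to the right in both fits and Prdx1 farthest to the left.

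Levels per length spanned a wide range and set how far each gene can be read. On the all-gene scale the mean CPM per kilobase over the 6 libraries was 221 for Mt1 and 146 for Prdx1, then 29.7 for Gclm, 18.8 for Nqo1, 18.4 for Txnrd1, 10.9 for Mt2 and 6.73 for Gclc. Srxn1 at 2.17, Hmox1 at 2.16 and Slc7a11 at 1.16 were lowest. Several neighbours in this order were not separated: the library ranges of Nqo1 (12.7 to 27.6) and Txnrd1 (13.0 to 27.3) nearly coincided, as did those of Srxn1 (1.28 to 3.24) and Hmox1 (0.927 to 3.34), and Mt1 and Prdx1 overlapped at 152 to 266 and 97.1 to 202. Against the background for their length, mean counts were 327 times higher for Mt1 and 220 times higher for Prdx1. They were 3.23 times for Srxn1, 3.08 times for Hmox1 and 1.67 times for Slc7a11, so much of what was counted for these 3 genes was at the rate of genes the cells are not known to use.

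**Figure D2:**
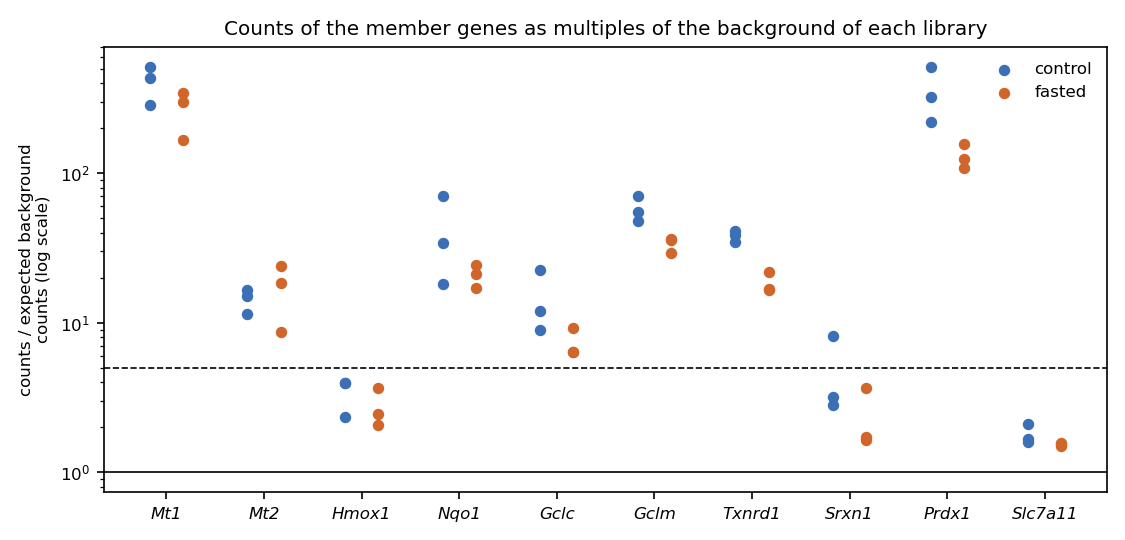
Counts of each gene divided by the background counts expected for its length in the same library (log axis; points: 3 control and 3 fasted libraries). The dashed line is the limit of 5 times used for the restricted fit; Mt1 and Prdx1 lie far above it, while the means of Hmox1, Srxn1 and Slc7a11 lie below it.

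Mt1 and Mt2 encode the 2 metallothioneins found in most tissues and lie side by side on chromosome 8. In GRCm38, Mt2 spans chr8:94172664-94173568 and Mt1 chr8:94179082-94180327, both on the plus strand with 5513 bases between them. The merged exons of Mt1 form 1 block of 1246 bases that takes in its introns, so reads from unspliced RNA add to its counts. The 250 bases before their RefSeq starts (GRCm38.p6, chr8:94178839-94179088 for Mt1 and chr8:94172368-94172617 for Mt2, plus strand) are shown because metal response elements that MTF1 binds are known near the starts of these genes. The Mt1 stretch holds 1 match, and 2 more lie in the first 30 bases after the RefSeq start, which are not printed. Which matches are the known elements was not tested. The RefSeq start of Mt2 (94172618) lies before its gene model, and that of Mt1 (94179089) lies inside its gene model. Capitals mark matches to TGCGCNC or TGCACNC on either strand.
Mt1: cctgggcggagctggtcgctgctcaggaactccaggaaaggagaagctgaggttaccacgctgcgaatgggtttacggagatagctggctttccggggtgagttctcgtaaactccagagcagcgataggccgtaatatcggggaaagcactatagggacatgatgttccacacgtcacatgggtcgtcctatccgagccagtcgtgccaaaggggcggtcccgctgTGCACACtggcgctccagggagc
Mt2: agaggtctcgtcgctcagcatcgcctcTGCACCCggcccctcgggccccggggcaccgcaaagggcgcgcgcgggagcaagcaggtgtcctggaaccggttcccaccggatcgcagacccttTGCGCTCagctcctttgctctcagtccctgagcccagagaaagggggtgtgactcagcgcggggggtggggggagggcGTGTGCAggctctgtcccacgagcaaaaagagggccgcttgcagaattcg
The 300-base windows also take in the first 50 bases from the RefSeq start. There Mt1 held 3 such matches, starting at positions -23, 3 and 21 from that start, and Mt2 held 4, at -223, -128, -50 and 5. Over all 32851 windows of that length 25.7% held at least 1 match and 1.97% held 3 or more. Mt2 also held 1 match to the antioxidant response element letters TGACNNNGC, TGACTCAGC at position -79, which contains the AP-1 letters TGACTCA.

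Mt1 was the most abundant of the 10 genes per length. Its counts were 5735, 7102 and 5255 in the control libraries, given here and below in the order 1, 2, 3, and 2945, 5983 and 6327 in the fasted libraries. On the all-gene scale that gave 252, 317 and 251 CPM against 189, 313 and 331 CPM. The fasted libraries held both the lowest and the highest value, and the group means of 273 ± 38.1 and 278 ± 77.1 CPM (SD, n = 3) were close. The all-gene fit gave a log2 fold change of 0.02 (SE 0.24, edgeR adjusted p = 0.952). On the restricted scale the values were 204, 301 and 266 CPM in the control group and 256, 382 and 477 CPM in the fasted group, again overlapping. The restricted fit put it at 0.53 (SE 0.23, edgeR adjusted p = 0.246).

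Mt2 was far less abundant than Mt1. Its counts were 87, 116 and 99 in the control libraries and 72, 173 and 208 in the fasted libraries, 8.61 to 23.8 times the background. On the all-gene scale the control libraries had 3.82, 5.18 and 4.72 CPM and the fasted libraries 4.63, 9.05 and 10.9 CPM. Fasted library 1 lay within the control range, and the other 2 fasted libraries lay above it. The all-gene fit put the log2 fold change at 0.84 (SE 0.34, edgeR adjusted p = 0.112). On the restricted scale the control libraries had 3.1, 4.91 and 5.00 CPM and the fasted libraries 6.26, 11.0 and 15.7 CPM, and the groups did not overlap. The restricted fit put it at 1.35 (SE 0.37, edgeR adjusted p = 0.148). It passed with DESeq2 on the same genes (adjusted p = 0.0200), of which 503 were called. Over all genes it passed in edgeR with library totals alone (adjusted p = 0.0400), which called 4296 genes higher. With TMM factors taken from the restricted gene set it passed at edgeR adjusted p = 0.0374, where 4988 genes were called higher.

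Mt2 counts relative to Mt1 counts do not depend on the scaling between libraries. This ratio was chosen after the values were seen. There were 1.52, 1.63 and 1.88 Mt2 counts per 100 Mt1 counts in the control libraries and 2.44, 2.89 and 3.29 in the fasted libraries. Each fasted library lay above each control library, with means of 1.68 ± 0.188 and 2.87 ± 0.422 (SD, n = 3), a ratio of 1.71. The two-sided exact permutation test gave p = 0.1, the smallest value that 3 against 3 libraries allow. With the background taken from both genes the ratio was 1.73, and leaving out each library in turn gave 1.59 to 1.84. Of the 588 exonic bases of Mt2, 432 are shared with the antisense gene Gm45774 (222 counts in all, 1.02 times the background). Whether reads were counted by strand is not given in the sources used here, so the level of Mt2 rests on a setting that is not known.

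**Figure D3:**
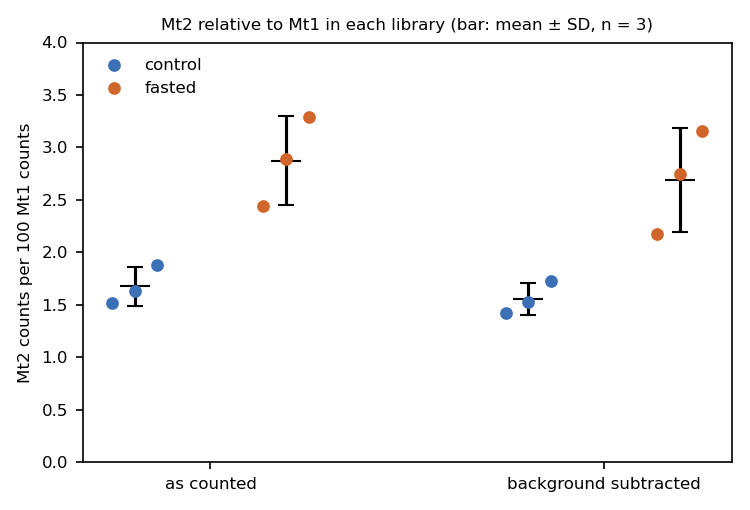
Mt2 counts per 100 Mt1 counts in each library (points; bars: mean and SD of 3 libraries), as counted and after subtraction of the background. The fasted libraries, at 2.44 to 3.29 as counted, all lie above the control libraries at 1.52 to 1.88.

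Hmox1 encodes haem oxygenase 1, which breaks haem down to biliverdin, iron and carbon monoxide and is a known target of both NRF2 and BACH1. It lies at chr8:75093621-75100589 on the plus strand. Its counts were 37, 91 and 101 in the control libraries and 91, 68 and 54 in the fasted libraries, 2.08 to 3.95 times the background. The corresponding levels were 1.62, 4.06 and 4.82 CPM and 5.85, 3.56 and 2.83 CPM. The groups overlapped, with control library 1 lowest and fasted library 1 highest. Fasted over control, the log2 value was 0.22 (SE 0.41, edgeR adjusted p = 0.734), and it was below 0 without control library 1 (-0.14) or without fasted library 1 (-0.14). Hmox1 did not reach the limit of the restricted fit.

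Nqo1 encodes a quinone reductase that is widely used as a readout of NRF2. It lies at chr8:107388225-107403206 on the minus strand. Its counts were 976, 703 and 414 in the control libraries and 377, 605 and 492 in the fasted libraries, or 42.8, 31.4 and 19.7 CPM and 24.2, 31.6 and 25.7 CPM. The 3 fasted libraries lay within the control range, which was the wider of the 2. For Nqo1 the log2 fold change came to -0.20 (SE 0.27, edgeR adjusted p = 0.617) in the all-gene fit and 0.34 (SE 0.21, edgeR adjusted p = 0.390) in the restricted fit.

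Short stretches around antioxidant response element matches are shown for Gclm, Txnrd1, Srxn1 and Prdx1, since these are the NRF2-linked genes of the set whose promoter windows held the letters. Each is on the plus strand of GRCm38.p6, at chr3:122245413-122245442, chr10:82859104-82859133, chr2:152105542-152105571 and chr4:116685456-116685485 in that order, and capitals mark TGACNNNGC, here read on the minus strand.
Gclm: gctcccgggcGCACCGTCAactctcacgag
Txnrd1: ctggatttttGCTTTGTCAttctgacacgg
Srxn1: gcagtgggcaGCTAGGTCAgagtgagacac
Prdx1: cagggaaagcGCTGAGTCAtcccccgtagg
Of the 10 genes, 8 matched an entry in the RefSeq promoter table, with 10 windows. Hmox1 and Gclc had no entry there, so their promoters were not searched. The letters were in the windows of 5 genes, the 4 above and Mt2, and for Txnrd1 in 1 of its 3 windows. Of all 32851 windows, 12.4% held them. The metal response element letters were in the windows of 4 genes, Mt1, Mt2, Gclm and Srxn1, and in Gclm 1 of the 3 such matches overlapped the antioxidant response element match. A match describes these letters and is not a measured binding site.

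Slc7a11, Gclc and Gclm supply and build glutathione. Slc7a11 is the transport subunit of the cystine importer and lies at chr3:49892526-50443614 on the minus strand. Its counts were 199, 307 and 430 in the control libraries and 306, 346 and 310 in the fasted libraries, only 1.5 to 2.1 times the background. On the all-gene scale that gave 8.73, 13.7 and 20.5 CPM against 19.7, 18.1 and 16.2 CPM. The fasted values lay inside the control range. For Slc7a11 the log2 fold change came to 0.33 (SE 0.29, edgeR adjusted p = 0.442). The background counts expected for its length were 125 to 205 in the control libraries and 198 to 222 in the fasted libraries. These ranges overlapped, with control library 1 lowest, while the background as a share of the library did not overlap between the groups. A stretch of the Slc7a11 exons is near-identical to 15 other gene models, Tuba1a, Tuba1b and Tuba1c among them, at 90% identity or more over at least 200 bases. Those models held 102424 counts in all, 71947 of them in Tuba1b, beside 1898 for Slc7a11. Reads from this stretch could be split between genes, and their share of the Slc7a11 counts was not tested.

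Gclc and Gclm encode the catalytic and modifier subunits of glutamate-cysteine ligase, the rate-limiting enzyme of glutathione synthesis. Gclc lies at chr9:77754535-77794485 and Gclm at chr3:122245557-122270732, both on the plus strand. Gclc counts were 761, 592 and 492 in the control libraries and 340, 384 and 513 in the fasted libraries, or 33.4, 26.4 and 23.5 CPM and 21.9, 20.1 and 26.8 CPM. The groups overlapped through control libraries 2 and 3 and fasted library 3. For Gclc the log2 fold change came to -0.28 (SE 0.25, edgeR adjusted p = 0.452) in the all-gene fit and 0.27 (SE 0.21, edgeR adjusted p = 0.489) in the restricted fit.

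Gclm was more abundant than its partner subunit per length, at 29.7 against 6.73 CPM per kilobase, and lay above it in each of the 6 libraries. Its counts were 3973, 4581 and 4412 in the control libraries and 2604, 3643 and 3342 in the fasted libraries. On the all-gene scale the levels were 174, 205 and 210.4 CPM and 167, 191 and 175 CPM, which overlapped. On the restricted scale they were 142, 194 and 223 CPM and 226, 232 and 252 CPM, which did not. The smallest gap there, between control library 3 and fasted library 1, was from 223 to 226 CPM. For Gclm the log2 fold change came to -0.15 (SE 0.22, edgeR adjusted p = 0.660) in the all-gene fit and 0.35 (SE 0.17, edgeR adjusted p = 0.281) in the restricted fit. It shares 296 exonic bases with Gm17494 on the other strand and 244 with Gm6061 on its own strand.

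Txnrd1, Srxn1 and Prdx1 belong to the thioredoxin system. Txnrd1 encodes the cytosolic thioredoxin reductase, which passes electrons from NADPH to thioredoxin, and lies at chr10:82833951-82897712 on the plus strand. Its counts were 2622, 3238 and 4054 in the control libraries and 1706, 2455 and 1754 in the fasted libraries, or 115, 145 and 193 CPM and 109.7, 128 and 91.8 CPM. The highest 2 values were control libraries, and fasted library 2 lay above control library 1. For Txnrd1 the log2 fold change came to -0.46 (SE 0.24, edgeR adjusted p = 0.206) in the all-gene fit, close to the median of expressed genes there, and 0.01 (SE 0.25, edgeR adjusted p = 0.993) in the restricted fit.

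Srxn1 encodes sulfiredoxin, which repairs over-oxidised peroxiredoxins, and lies at chr2:152105516-152111376 on the plus strand. Its counts were 208, 119 and 117 in the control libraries and 69, 164 and 69 in the fasted libraries, or 9.13, 5.31 and 5.58 CPM and 4.44, 8.58 and 3.61 CPM. A single library of each group, control 1 and fasted 2, stood above the rest. For Srxn1 the log2 fold change came to -0.27 (SE 0.35, edgeR adjusted p = 0.619). Srxn1 did not reach the limit of the restricted fit.

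Prdx1 encodes peroxiredoxin 1, an abundant enzyme that removes hydrogen peroxide and is itself reduced by thioredoxin. It lies at chr4:116685544-116700822 on the plus strand. Its counts were 13999, 12884 and 9845 in the control libraries and 4727, 7669 and 5646 in the fasted libraries. On the all-gene scale the levels were 614, 575 and 469 CPM in the control group and 304, 401 and 295 CPM in the fasted group. Each fasted library lay below each control library, with means of 553 ± 74.9 and 333 ± 58.7 CPM (SD, n = 3). For Prdx1 the all-gene fit put the log2 fold change at -0.73 (SE 0.23, edgeR adjusted p = 0.0580), beside the median of -0.50 for expressed genes in that fit. On the restricted scale the groups were closer, at 499, 546 and 498 CPM against 411, 489 and 426 CPM, still without overlap. The restricted fit put it at -0.22 (SE 0.12, edgeR adjusted p = 0.340). In the all-gene comparison Prdx1 passed with DESeq2 (adjusted p = 0.00907), and in edgeR without control library 3 (adjusted p = 0.0236), without fasted library 2 (adjusted p = 0.0388), with no filter on low counts (adjusted p = 0.0451) and with a mean of at least 1 CPM as the filter (adjusted p = 0.0488). The first 2 of these settings called 5301 and 5379 genes in all. In edgeR it was -0.25 with library totals alone (adjusted p = 0.140), -0.22 with TMM factors of the restricted gene set (adjusted p = 0.186) and -0.14 with background subtracted (adjusted p = 0.550). The 3 processed pseudogenes, Gm15974, Gm21399 and Gm7204, are near-identical to parts of it and held 1980 counts beside 54770 for Prdx1.

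**Figure D4:**
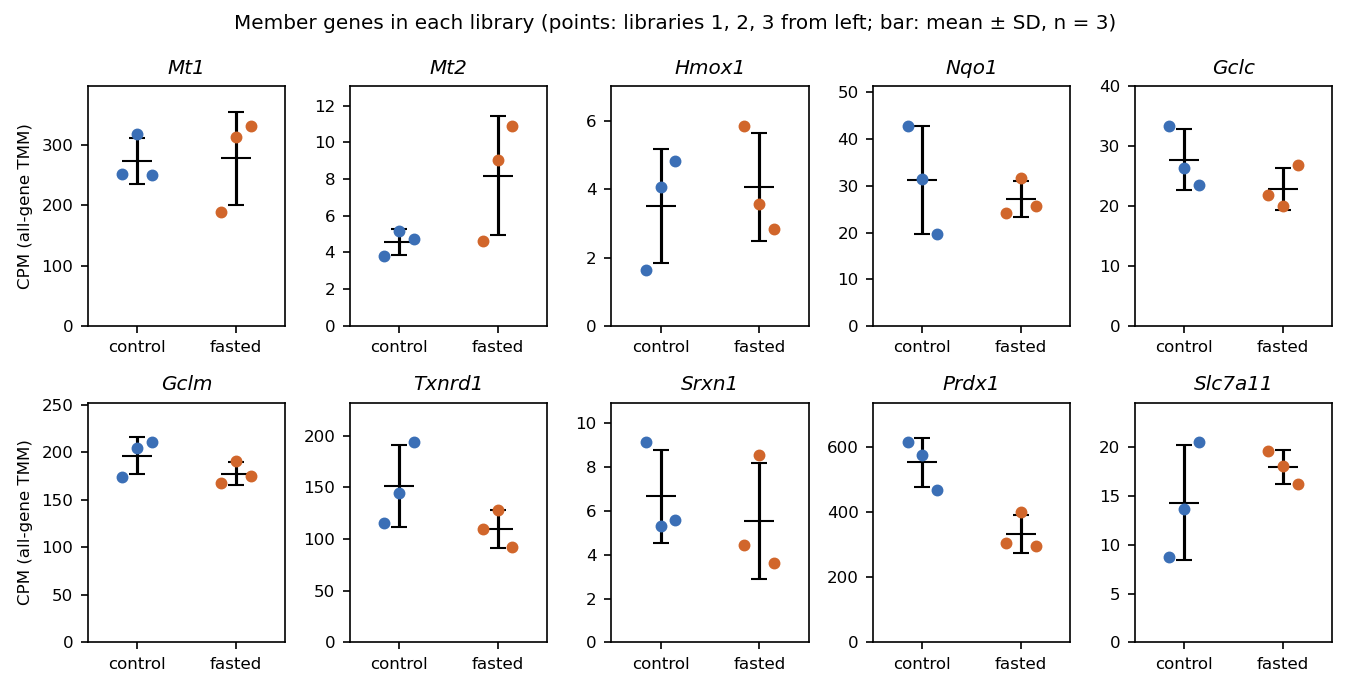
CPM on the all-gene scale for each of the 10 genes in the 3 control and 3 fasted libraries (points, libraries 1 to 3 from left; bars: mean and SD, n = 3; each panel has its own axis from 0). Prdx1 is the 1 gene whose groups do not overlap on this scale, and fasted libraries 2 and 3 of Mt2 lie above its control libraries.

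Among the 7 genes of the restricted fit, likeness of pattern was measured as the root-mean-square difference of log2 CPM over the 6 libraries, each gene centred on its mean, where 0 is an identical pattern. It is a description over 6 libraries whose depth and background differ between the groups. The closest pair of the set was Gclm and Txnrd1 at 0.24, followed by Mt1 and Gclm at 0.26, while Mt1 and Mt2 differed by 0.32 and Mt2 and Prdx1, the least alike, by 0.76. From a flat pattern Gclm differed by 0.27, Txnrd1 by 0.33, Mt1 by 0.40, Mt2 by 0.68 and Prdx1 by 0.14. The 2 closest pairs were thus little nearer than Gclm is to a flat gene. The closest genes named next are minima over many genes, whose median distance ran from 0.25 for Prdx1 to 0.72 for Mt2. Among 9119 genes, those closest to Mt1 were Cd24a (0.10), Gm18646 (0.11) and Pla2g12a (0.11), and to Mt2 were Jsrp1 (0.20), Gm17535 (0.21) and Gm1968 (0.21). Closest to Nqo1 were Lysmd1 (0.07), 2310022B05Rik (0.07) and Irf9 (0.08). Gclc had Ambra1 (0.04), Gpr107 (0.06) and Ehbp1l1 (0.06), and Gclm had Flvcr1 (0.05), Scaf4 (0.06) and Selenoo (0.06). Txnrd1 had Psme3 (0.05), Zfp868 (0.07) and Gm45819 (0.08), and Prdx1 had Chmp2b, Gnl3l (both 0.02) and Xrn2 (0.03).

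The 10 genes were then read beside the rest of their pathways, in 10 lists with 133 genes. In the all-gene fit 129 of these were tested, 0 were called higher and 16 lower, with a median log2 fold change of -0.38. All 16 were at or above 5 times the background, where 1368 of all 10641 genes were called lower. In the restricted fit 0 of 98 were called by edgeR, 20 had an unadjusted p under 0.05, DESeq2 called 3 higher and 2 lower, and the median was 0.05. The count of 16 ran from 1 to 39 when 1 library was left out, with 1 without fasted library 1 or 3 and 2 without control library 2. With TMM factors taken from the restricted gene set it became 12 higher and 4 lower, beside 4988 higher and 256 lower over all genes tested.

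The regulators of the set did not pass the test. Nfe2l2, which encodes NRF2, had 168 ± 63.6 CPM in the control group and 108 ± 17.4 CPM (SD, n = 3) in the fasted group, a log2 fold change of -0.64 (SE 0.26, edgeR adjusted p = 0.113) and of -0.09 in the restricted fit. The log2 fold changes in the all-gene and restricted fits were -0.59 and -0.04 for Keap1, 0.37 and 0.83 for Bach1, -0.25 and 0.25 for Mtf1, and -0.38 and 0.18 for Txnip, an inhibitor of thioredoxin. Sqstm1, an autophagy receptor that binds KEAP1, had 0.30 and 0.71. Among the 15 genes of NRF2 control only Nfe2, the erythroid and megakaryocytic relative of NRF2, passed the test, at -1.32 (SE 0.32, edgeR adjusted p = 0.0405). Its control libraries were spread widely, at 362 ± 221 CPM beside 145 ± 15.6 CPM (SD, n = 3) in the fasted group.

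Metal handling and glutathione genes each had 2 calls, all lower in the all-gene fit. Of 10 metal handling genes tested these were the zinc importers Slc39a10 (-1.37) and Slc39a6 (-0.81), while the copper chaperone for superoxide dismutase Ccs (-0.64) and the copper importer Slc31a1 (-0.63) did not pass. Of 25 glutathione genes, glutathione reductase Gsr (-1.14) and glutaredoxin Glrx (-0.94) passed. The 2 glutathione peroxidases with the highest level per length, Gpx1 (-0.66) and Gpx4 (-0.42), did not.

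Among 15 thioredoxin and peroxiredoxin genes Prdx5 fell (-1.11, SE 0.24, edgeR adjusted p = 0.0277), while Txn1 (-0.65) and Prdx6 (-0.46) did not pass. None of 6 genes for superoxide and peroxide removal passed in the all-gene edgeR fit, with Sod1 at -0.23 and Park7 at -0.74. Passing counts were 2 with DESeq2, without control library 3 or without fasted library 2, and 1 with RLE factors, with no filter on low counts or with a mean of at least 1 CPM. NADPH supply had 3 of 8 genes called lower, isocitrate dehydrogenases Idh1 (-1.78) and Idh2 (-0.97) and the pentose phosphate enzyme Pgd (-0.83), and Taldo1 at -0.60 was not called. Idh1 went from 91.4 ± 1.08 to 26.6 ± 6.73 CPM (SD, n = 3), and had edgeR adjusted p = 0.0012 in the all-gene fit and 0.131 in the restricted fit, where its log2 fold change was -1.29.

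Of 8 haem breakdown genes, Hmox2, the haem oxygenase expressed without induction, was called lower (-1.08, SE 0.23, edgeR adjusted p = 0.0277), and the ferritin genes Fth1 (-0.33) and Ftl1 (-0.51) were not. Of 22 other NRF2 targets 4 were called lower, Ptgr1 (-1.11), Akr1c13 (-1.07), Nqo2 (-0.95) and Akr1b3 (-0.77), and Esd had -0.66. The list as a whole had 14 genes above 0 and 8 below, with a median of 0.13, and 7 above and 5 below in the restricted fit. Gdf15 (1.09), Osgin1 (0.82) and Aldh3a1 (0.75), named after their values were seen, did not pass and lay below 5 times the background. Of 14 ATF4 targets the serine synthesis genes Phgdh (-0.97) and Psat1 (-0.83) were called lower, and Asns had -0.15. Of 9 glucocorticoid-induced genes 0 passed in the all-gene edgeR fit or with DESeq2. In edgeR 3 passed with library totals alone or with TMM factors taken from the restricted gene set. Those 2 scalings called 4587 and 5244 genes over all genes tested, 4296 and 4988 of them higher. The glucocorticoid-induced list had medians of 0.19 in the all-gene fit and 0.67 in the restricted fit. There 8 of 8 were above 0 and 3 had an unadjusted p under 0.05. Tsc22d3 had 0.19 and 0.66 and Dusp1 -0.10 and 0.43. The 16 genes called lower in the lists all kept a log2 fold change below 0 in the restricted edgeR fit, where none passed. They were picked as lower in the same libraries, so the kept sign is no separate support.

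**Figure D5:**
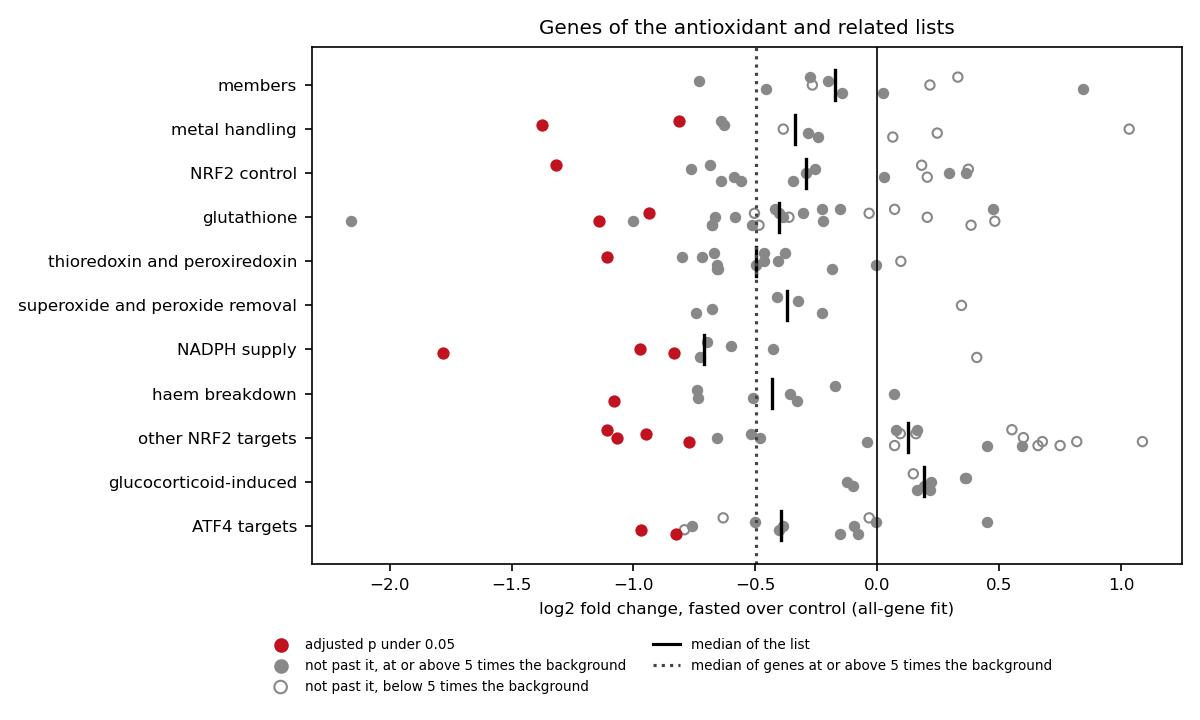
Log2 fold change in the all-gene fit for the 10 genes and for each pathway list (circles: genes; red: adjusted p under 0.05; open: below 5 times the background; black bars: list medians). The 16 red genes, picked by the test on these values, all lie left of the dotted line at -0.50, the median of expressed genes. The 10 genes of the set have a median of -0.17.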

How the data were processed

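The authors deposited 1 table of raw read counts per gene, with 1 column for each of the 6 libraries and a gene length. HISAT2 2.2.1, featureCounts 2.0.1 and GRCm38 are named in the submitters' processing notes, and their settings, the strand handling and the annotation release are not given in the sources used here. Polyadenylated RNA was selected with oligo(dT) beads and primed with random hexamers, per the labels' protocols. Of 55487 identifiers, 54435 matched GENCODE M21 with their version, and all 54435 had the deposited length.

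Genes were kept with filterByExpr, scaled by TMM and tested with edgeR 4.0.16 in R 4.3.3 (robust quasi-likelihood, group as the only term, Benjamini-Hochberg adjustment over all genes tested, adjusted p under 0.05). The same fit was made on genes with a mean count of at least 5 times the background, the receptor gene rate times exonic length. An SE is the log2 fold change divided by the square root of F. Depth of 12797144 to 30246110 counts per library limits the low genes.

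The 10 genes, the pathway and marker lists, and the restricted fit were chosen with earlier results of these data known. Named beside them were up to 4 called genes and the 2 with the highest CPM per kilobase of each list, 5 regulators, and the 3 genes most like each gene of the restricted fit. Near-identical copies were sought with blastn, and the minimum of 200 aligned bases was set after shorter matches to repeats were seen. Alternatives were DESeq2 1.42.0, limma-voom (limma 3.58.1), other scalings, filters and limits, background subtraction, the replicate number as a block and leaving out each library. The exact permutation test used scipy 1.17.1. The edgeR fit was tested on simulated counts, where a first requirement for recovery was missed and was replaced by one for genes with higher counts.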

Additional observations from a re-analysis of the deposited data

How the results depend on the processing

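Mt2 was above 0 and Prdx1 below 0 in all alternatives run, which reuse the libraries that marked these genes as the extremes. Slc7a11, at 1.67 times the background, was above 0 in the 16 that held it. The restricted gene set and the background subtraction left Slc7a11 out. Genes below 5 times the background had a median of 0.53 in the all-gene fit, above its 0.33. Of the 1813 genes called over all genes, other settings gave 2973 (RLE factors), 4587 (library totals alone), 5244 (TMM factors of the restricted gene set), 2849 (no filter on low counts), 2747 (mean of at least 1 CPM), 0 (restricted gene set only), 0 (background subtracted), 5301 (DESeq2), 558 (not robust) and 5723 (adjusted p under 0.10). Leaving out each library gave 7 to 5379, with 190 without control library 2, 5379 without control library 3, 105 without fasted library 1 and 7 without fasted library 3. The split of 420 higher and 1393 lower became 301 and 2672 with RLE factors, 4296 and 291 with library totals alone, and 4988 and 256 with the factors of the restricted gene set. The 0 calls among the 10 genes became 1 with library totals alone, 1 with those factors (both Mt2), 1 with no filter on low counts, 1 with a mean of at least 1 CPM, 1 with DESeq2 and 1 at an adjusted p under 0.10 (all Prdx1), and 0 to 1 when a library was left out. In the restricted fit, 0 calls became 6 at a limit of 3 times the background, 503 with DESeq2 and 0 to 3 when a library was left out, with 3 without control library 1 and 3 without control library 3. The cause of these shifts was not tested.

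Replicate numbers are shared by the groups, but same-numbered libraries correlated at -0.18, 0.14 and -0.37 in their deviations from the group means, and 2 of 6 libraries correlated best with their own number, so no pairing was assumed. With the replicate number as a block 146 genes and 0 of the 10 were called, and Mt1 had a log2 fold change of -0.0091.

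Signs turned as follows, on the log2 scale. Mt1 was -0.17 with RLE factors, -0.010 with no filter on low counts, -0.17 with DESeq2, -0.0058 with limma-voom, and -0.15 to 0.23 when a library was left out. Hmox1 ran from -0.14 to 0.50 when a library was left out. With library totals alone, Nqo1 was 0.31, Gclc 0.24, Gclm 0.33 and Srxn1 0.20. With the factors of the restricted gene set, Nqo1 was 0.34, Gclc 0.27, Gclm 0.35, Txnrd1 0.0055 and Srxn1 0.24. With that gene set only, Nqo1 was 0.34, Gclc 0.27, Gclm 0.35 and Txnrd1 0.0056. With background subtracted, Nqo1 was 0.40, Gclc 0.26, Gclm 0.41 and Txnrd1 0.036. When a library was left out, Nqo1 ran from -0.46 to 0.079 and Srxn1 from -0.80 to 0.018. In the restricted fit Txnrd1 was -0.11 at a limit of 3 times the background, -0.017 with RLE factors, -0.017 with DESeq2 and -0.23 to 0.32 when a library was left out. Counts were lowest for Hmox1, Mt2 and Srxn1, at 37 to 208 per library, where counting error weighs most.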
